A study of Mus musculus with 2 samples.

Results

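The immunoglobulin light chain genes were taken as every feature whose symbol starts with Igkv, Igkc, Iglv or Iglc. They came to 168 of the 31253 features in the count tables. The kappa locus on chromosome 6 held 161 of them, the constant gene Igkc and 160 variable (V) genes. The lambda locus on chromosome 16 held the other 7, the constant genes Iglc1, Iglc2, Iglc3 and Iglc4 and the V genes Iglv1, Iglv2 and Iglv3. In the RA library 96 of the 168 were detected, 111 were detected in butyrate, and 51 were at 0 in both.

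An antibody is built from heavy chains and light chains, and a B cell usually makes its light chain from either the kappa or the lambda locus. At each locus a V gene is joined to a short J segment upstream of the constant gene, so the V gene and the constant gene a cell transcribes record the choice it made. Kappa is tried first in most developing B cells, and mice use lambda rarely. In the intestine, plasma cells secrete large amounts of dimeric IgA held together by the J chain, while germinal centre B cells in lymphoid follicles mutate and select their V genes.

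Whole intestine was dissociated and profiled by droplet 3′ single-cell RNA sequencing in 1 library per group. The RA library came from a mouse labelled RA, of genotype WT, fed standard chow. The series' design text, and not the sample's own labels, names collagen-induced arthritis (CIA) for the group other than butyrate. The butyrate library came from a WT mouse fed a diet with 1% butyrate, and the labels do not say whether that mouse had arthritis. Strain, age and sex are not in the labels. With 1 mouse per group no difference below was tested: each interval is an exact 95% interval that covers counting error only, and a difference between the libraries cannot be told apart from a difference between these 2 mice or their preparation.

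The tables held 61912439 UMIs (unique molecular identifiers, 1 per captured RNA molecule) in 10140 RA barcodes and 67894477 UMIs in 9959 butyrate barcodes. The limits for keeping a barcode were 500 UMIs, 250 genes and a mitochondrial share of 25% or less, which 6909 and 8247 barcodes met. Before these limits the lowest barcode held 501 UMIs in RA and 2313 in butyrate, so the butyrate counts began at a higher depth. A limit of 2313 UMIs in both libraries was 1 of the alternative settings. The 2 libraries shared 27 barcode sequences, of which 5 RA and 19 butyrate ones fell in the classes below. Plasma cells, with at least 20 Jchain UMIs and at least 1 UMI of Mzb1 (a chaperone of antibody assembly), numbered 105 in RA and 73 in butyrate. B cells, with a UMI of the B cell receptor gene Cd79a and fewer than 20 Jchain UMIs, were divided by Ighd, the IgD heavy chain gene of naive cells. Those with an Ighd UMI numbered 2746 and 4013, and those without numbered 638 and 975.

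Markers the rule did not use showed more B cell RNA in the butyrate plasma class than in the RA one. Sdc1, the plasma cell surface proteoglycan, had a UMI in 88.6% of RA and 65.8% of butyrate plasma cells. Ms4a1, which encodes the B cell protein CD20, had one in 15.2% and 39.7%. The 9 B cell markers summed to 558 CPM (UMIs per 1000000 UMIs of the class) in RA plasma cells and 800 in butyrate plasma cells. Cells just above the Jchain limit, with 20 to 39 UMIs, numbered 5 in RA and 28 in butyrate (with or without Mzb1), and 40% and 96.4% of them had a Ms4a1 UMI. Cells just below it, with 10 to 19 UMIs, numbered 15 and 65, of which 80% and 100% had one.

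Light chain RNA was mostly Igkc, and much of it sat in few cells. The members made up 1.61% of all kept UMIs in RA and 0.818% in butyrate. Igkc alone gave 94.5% and 94.0% of the members' UMIs, and all V genes together 1.23% and 1.37%. The 105 RA plasma cells held 64.6% of the library's member UMIs, and the 73 butyrate plasma cells held 48.9%. Since the reads come from the 3′ end of transcripts, a constant gene is counted far more often than the V gene on the same RNA: there were 1.29 V UMIs per 100 constant-gene UMIs in RA plasma cells and 1.32 in butyrate plasma cells.

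Most plasma cells carried far more Igkc than B cells did. In RA plasma cells the lowest Igkc count was 79, the median 4279 and the highest 11361. In butyrate plasma cells the lowest was 18, the median 2556 and the highest 9440. The ranges overlapped over most of their length, and the butyrate class reached lower. As a share of the cell's own UMIs, Igkc had a median of 23.6% in RA and 13.7% in butyrate. Summed over the class, Igkc was at 249981 CPM in RA and 140538 in butyrate, a ratio of 0.562 (0.559 to 0.565). Among plasma cells with no Ms4a1 UMI, 89 in RA and 44 in butyrate, the median shares were 24.4% and 24.5% and the summed ratio was 0.830 (0.826 to 0.835). In B cells Igkc was far lower, with a median of 11 UMIs in RA and 14 in butyrate among cells with Ighd, and 12 and 17 among cells without.

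Cells that should make no antibody set the level of free RNA. An Igkc UMI was found in 27.2% of RA and 15.9% of butyrate T cells (median depth 6064 and 6200.5 UMIs), against 98.9% and 99.2% of B cells with Ighd (4080.5 and 4480 UMIs). An Iglc UMI was found in 0.555% and 1.19% of T cells, against 64.4% and 64.8% of those B cells. After every cell was thinned to 1000 UMIs the Iglc shares were 0.185% and 0.297% in T cells and 29.4% and 27.7% in B cells with Ighd (2 such RA B cells and 1 RA T cell were shallower and left out). An Iglc UMI was also present in 65.3% of RA and 65.5% of butyrate B cells with Ighd that were typed as kappa, above the share in T cells.

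The lambda constant genes are close relatives. The first 60 bases of their constant exon (GENCODE M21 transcripts, GRCm38) are shown because the counts of each single Iglc gene rest on telling them apart. Capitals mark bases that differ from Iglc2, and all 3 lie on the minus strand of chromosome 16, Iglc2 at chr16:19198793-19198852, Iglc3 at chr16:19065622-19065681 and Iglc1 at chr16:19062012-19062071.
Iglc2: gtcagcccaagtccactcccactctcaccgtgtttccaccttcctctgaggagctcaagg
Iglc3: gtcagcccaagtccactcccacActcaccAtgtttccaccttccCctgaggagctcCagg
Iglc1: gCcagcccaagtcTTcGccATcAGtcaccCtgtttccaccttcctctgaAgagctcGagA
In these 60 bases Iglc3 differed from Iglc2 at 4 positions and Iglc1 at 12. Over the whole transcripts, 7.65% of the 50-base windows of Iglc2 also occurred in Iglc3 and 0% of those of Iglc1 in Iglc2, so part of the reads of Iglc2 and Iglc3 cannot be assigned to 1 of the 2.

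No RA plasma cell and 1 butyrate plasma cell was a lambda cell, where a lambda cell has at least 5 constant-gene UMIs of which 50% or more are Iglc. The count of 0 of 105 allows a share of up to 2.86% in RA. In butyrate the share was 1 of 73 or 1.37% (0.0347% to 7.40%). That cell had 34 Jchain, 29 Igkc and 55 Iglc UMIs, with 13 Ighm UMIs and a Ms4a1 UMI, and with a Jchain limit of 50 it left the class. Among the RA plasma cells the highest lambda share of any cell was 6.28%. Every plasma cell except 1 in RA still held some Iglc molecules, with a median of 52 in RA and 40 in butyrate.

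The clear lambda plasma cells were outside the class because they had no Mzb1 UMI. Mzb1 was a weak marker here, with a median of 1 UMI per cell and UMIs in 66.0% of RA and 57.9% of butyrate cells with at least 20 Jchain UMIs. Of the 54 RA and 53 butyrate cells without one, 2 and 1 had no Igkc UMI at all and at least 2956 Iglc UMIs. The first RA cell had 8198 Iglc2, 458 Iglc1 and 35 Iglv2 UMIs with 2363 UMIs of Igha, the IgA heavy chain gene. The second RA cell had 7022 Iglc1 and 55 Iglv1 UMIs with 1931 Igha UMIs. The butyrate cell had 2917 Iglc1 and 60 Iglv1 UMIs with 2073 Igha UMIs. By Jchain alone, lambda cells were 2 of 159 or 1.26% (0.153% to 4.47%) in RA and 2 of 126 or 1.59% (0.193% to 5.62%) in butyrate, shares that overlap.

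**Figure D1:**
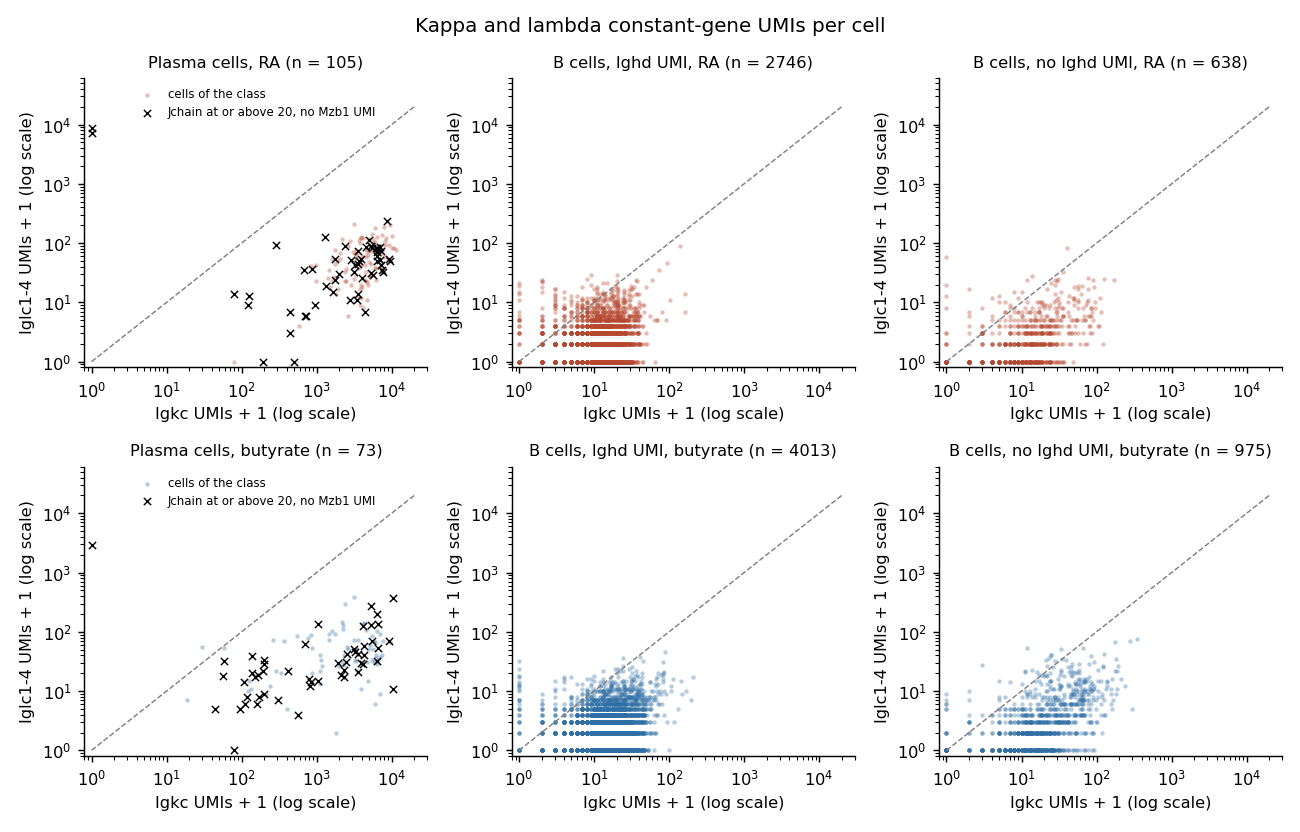
Each point is 1 cell, with Igkc UMIs + 1 on the horizontal axis and the sum of Iglc1 to Iglc4 UMIs + 1 on the vertical axis, both on log scales, for each class (columns) and library (rows); the dashed line marks equal counts and crosses mark cells with at least 20 Jchain UMIs and no Mzb1 UMI. The 3 crosses at the far left, 2 in RA and 1 in butyrate, are the cells with no Igkc UMI.

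In B cells with Ighd the lambda share was lower in butyrate than in RA. Lambda cells were 129 of 2513 typed cells in RA, 5.13% (4.30% to 6.07%), and 101 of 3821 in butyrate, 2.64% (2.16% to 3.20%), a ratio of 0.515 (0.393 to 0.673). Summed over the class, Iglc gave 14.5% of constant-gene UMIs in RA and 11.1% in butyrate, a ratio of 0.766 (0.741 to 0.792). Many typed cells had mixed counts, including 100 of the 129 RA and 73 of the 101 butyrate lambda cells. Among all typed cells, 575 in RA and 630 in butyrate, 22.9% and 16.5%, had between 20% and 80% lambda. Without those cells the ratio was 0.586 (0.336 to 1.021), an interval that includes equality. Cells with at least 95% lambda numbered 10 in RA, 0.398% (0.191% to 0.731%), and 14 in butyrate, 0.366% (0.200% to 0.614%), shares that overlap. With at least 20 constant-gene UMIs per cell, which 652 and 1450 cells had, the shares were 4.29% and 1.45%.

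In B cells without Ighd the shares were 28 of 527 or 5.31% (3.56% to 7.59%) in RA and 34 of 889 or 3.82% (2.66% to 5.30%) in butyrate. The ratio of 0.720 had an interval of 0.424 to 1.23, which includes equality, and at 20 constant-gene UMIs it was 1.34 (0.511 to 4.14). Lambda cells were absent among the 102 butyrate cells led by Ighg1, the IgG1 heavy chain gene, where a count of 0 has an upper interval bound of 3.55%. Among the 47 typed RA cells led by Ighg1 they numbered 5, or 10.6% (3.55% to 23.1%). Both groups of cells come from 1 mouse each.

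**Figure D2:**
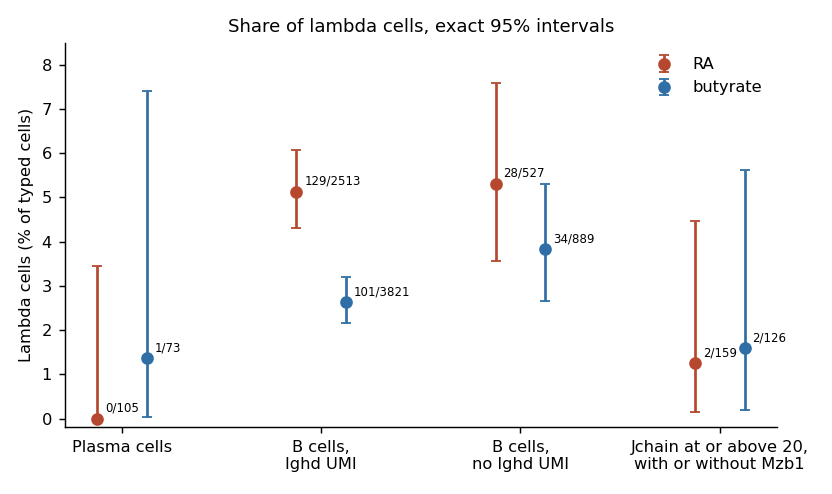
Lambda cells as a percentage of typed cells on the vertical axis for plasma cells, B cells with and without an Ighd UMI, and all cells with at least 20 Jchain UMIs; points are libraries, bars are exact 95% intervals for counting error, and the labels give lambda cells over typed cells. RA and butyrate separate in B cells with Ighd, at 5.13% and 2.64%, and overlap elsewhere.

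Among the lambda constant genes, Iglc2 led in RA plasma cells and Iglc1 in butyrate plasma cells. Iglc2 was at 1889 CPM in RA and 865 in butyrate plasma cells, a ratio of 0.458 (0.430 to 0.487). Iglc1 was at 1093 and 1151, a ratio of 1.05 (0.989 to 1.12). Iglc3 was at 331 and 576, a ratio of 1.74 (1.57 to 1.92), and 1 butyrate cell held 39.1% of its UMIs there. Iglc4 was nearly silent, with 2 UMIs in each plasma class. In B cells with Ighd, Iglc2 gave 4323 of the RA lambda constant UMIs, or 72.4%, and Iglc1 12.6%.

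The lambda V genes are shown with the last 36 bases of their exon, on the minus strand of chromosome 16 (GENCODE M21, GRCm38), because counts of Iglv1 in plasma cells rest on telling it from Iglv2. Capitals mark the bases that differ between the 2 genes, Iglv1 at chr16:19085017-19085052 and Iglv2 at chr16:19260401-19260436.
Iglv1: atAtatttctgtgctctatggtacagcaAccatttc
Iglv2: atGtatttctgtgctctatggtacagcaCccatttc
They differ there at 2 positions, and 22.2% of the 50-base windows of Iglv1 occur in Iglv2.

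Iglv1 was abundant in plasma cells whose constant gene was kappa. It had a UMI in 87 of 105 RA plasma cells (82.9%) and 52 of 73 butyrate plasma cells (71.2%), with at least 3 UMIs in 70 and 38. Its lowest, median and highest counts were 0, 9 and 342 in RA and 0, 3 and 170 in butyrate. Iglv1 gave 35.3% of all light chain V UMIs of RA plasma cells and 35.4% of those of butyrate plasma cells, while Iglc gave 1.31% and 1.81% of constant-gene UMIs. Under the rule for assigning a V gene to a cell, at least 3 UMIs and at least 60% of the cell's light chain V UMIs, 14 RA and 6 butyrate plasma cells were assigned Iglv1. Those cells had a median of 4835.5 and 4587.5 Igkc UMIs and of 50 and 28.5 Iglc UMIs. Plasma cells assigned an Igkv gene had a median of 4531 and 3415 Igkc UMIs and of 53 and 40 Iglc UMIs. At least 3 UMIs of Iglv1 and of an Igkv gene occurred together in 69 RA and 37 butyrate plasma cells. Iglv1 had a UMI in 0.292% of RA and 0.0831% of butyrate epithelial cells and in 0.874% and 0.498% of B cells with Ighd, and in 0.604% of RA and 0 of the butyrate fibroblasts, all far below the share in plasma cells.

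**Figure D3:**
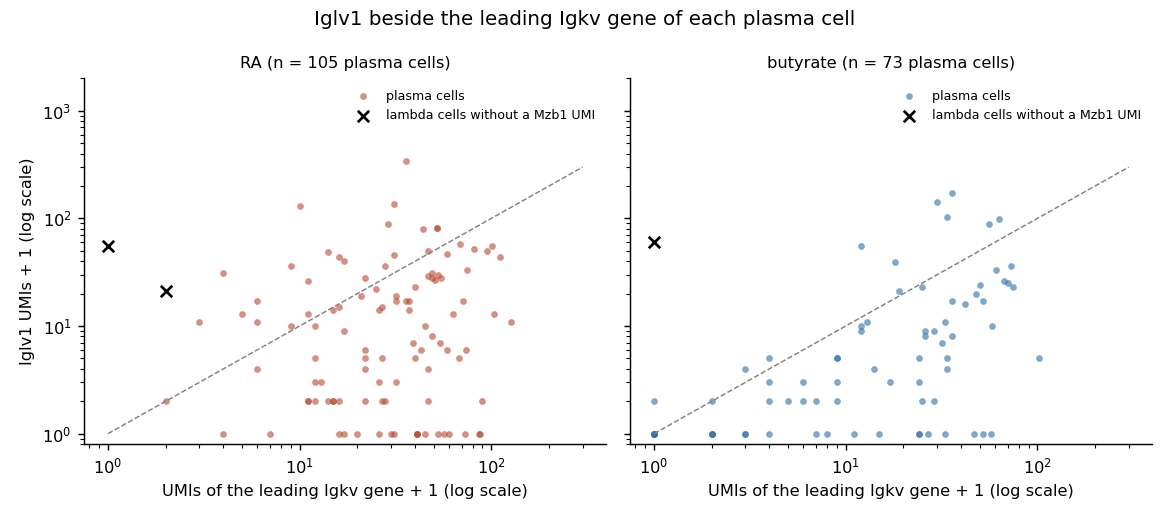
Each point is 1 plasma cell, with UMIs + 1 of its leading Igkv gene on the horizontal axis and Iglv1 UMIs + 1 on the vertical axis, both on log scales, for RA (left) and butyrate (right); the dashed line marks equal counts and crosses are the cells with more Iglc than Igkc among those without a Mzb1 UMI. Most plasma cells with an Iglv1 UMI lie to the right, with an Igkv gene as well, and the crosses have 1 Igkv UMI at most.

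In B cells V genes were sparse, and the typed cells with an Iglv1 or Iglv3 UMI were mostly typed as kappa. Iglv1 had a UMI in 22 typed RA B cells with Ighd, and 5 of them (22.7%, 7.82% to 45.4%) were lambda cells by their constant genes, against 4.98% of the cells without such a UMI. In butyrate 2 of 20 were (10%, 1.23% to 31.7%), against 2.60%. Iglv3 had a UMI in 49 and 54 such cells, of which 6 and 2 were lambda cells. In RA, Iglv1 had a UMI in 0.874% of B cells with Ighd, close to the 0.604% of fibroblasts. The RA epithelial cells and T cells were lower, at 0.292% and 0.185%. In butyrate it had a UMI in 0.498% of B cells with Ighd, against 0.0831% of epithelial cells and 0 of the T cells and fibroblasts. Because of the RA fibroblast level, no difference in its use is read from these B cells. Iglv3 had a UMI in 1.89% and 1.35% of those B cells, against 0.0973% of RA epithelial cells and 0 of the RA T cells and fibroblasts and of the 3 butyrate types. When a single UMI sufficed to assign a V gene, a choice made after the data were seen, Iglv3 was assigned in 8.86% of 474 RA and 4.58% of 807 butyrate B cells with Ighd, a ratio of 0.517 (0.323 to 0.825).

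Many V genes were assigned in plasma cells, with Iglv1 and Igkv1-110 among the leaders in both mice. An assigned Iglv1 did not mean a lambda cell. Of the plasma cells with an Iglv1 UMI, 0 of 87 in RA and 1 of 52 in butyrate were lambda cells. A V gene was assigned in 84 RA plasma cells (80%), with 27 V genes, and in 50 butyrate plasma cells (68.5%), with 24. The effective number of V genes is the inverse of the chance that 2 assigned cells share one. With Iglv1 counted in, it was 16.6 and 18.6. Iglv1 came first in RA with 14 cells, or 16.7% (9.42% to 26.4%). Igkv1-110 and Igkv1-117 followed with 8 cells each, or 9.52%, then Igkv5-37 with 7, and Igkv5-39 and Igkv8-27 with 5 each. In butyrate Igkv1-110 led with 8 cells, or 16% (7.17% to 29.1%), before Iglv1 with 6, Igkv2-137 with 5 or 10%, and Igkv12-46, Igkv15-103 and Igkv19-93 with 3 each. Iglv1, the sole V gene with at least 20 assigned plasma cells over both libraries, had a ratio of 0.720 (0.227 to 1.99), which includes equality. No pseudogene was assigned to a plasma cell, although 60 of the members are pseudogenes and 7 in RA and 14 in butyrate had a UMI.

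**Figure D4:**
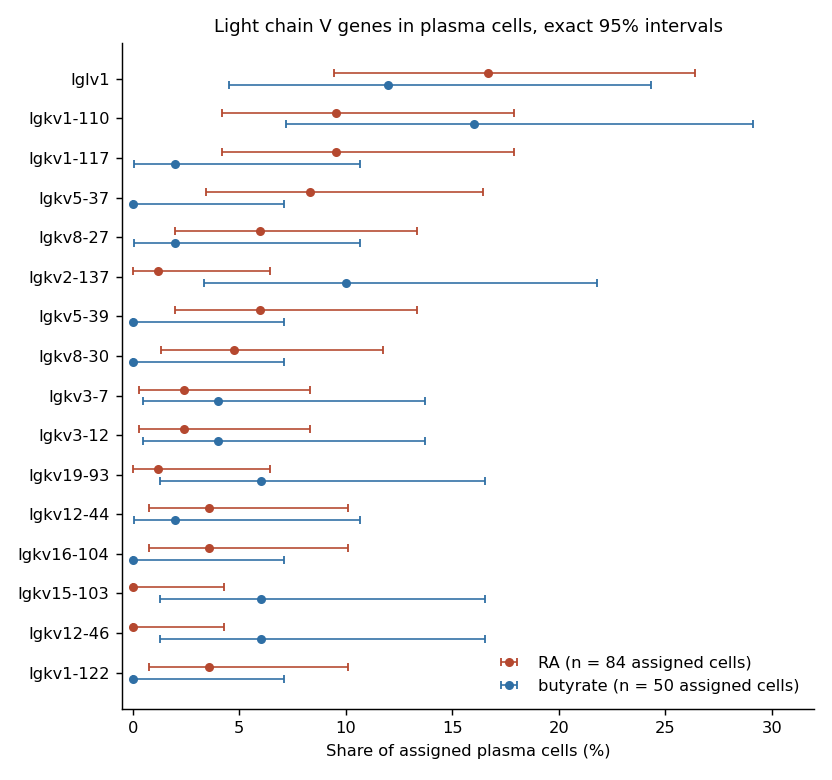
Share of assigned plasma cells (horizontal axis, in percent) for each V gene (vertical axis) assigned in at least 3 plasma cells over both libraries; points are libraries, n = 84 RA and 50 butyrate cells, and bars are exact 95% intervals for counting error. Igkv5-37 and Igkv5-39 have points above 0 in RA alone and Igkv12-46 and Igkv15-103 in butyrate alone, with intervals that overlap.

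Some V genes had most or all of their plasma cell UMIs in 1 mouse, although with at least 3 UMIs needed no V gene's share of assigned plasma cells had a ratio whose interval excluded equality. The last 36 bases of 3 of them are shown (GENCODE M21, GRCm38), with capitals for the bases after the codon of the conserved cysteine, the germline part of the third complementarity-determining region, which touches antigen. Igkv5-37 (chr6:69963312-69963347) and Igkv5-39 (chr6:69900424-69900459) are on the minus strand, 763 and 825 kb from Igkc, and Igkv2-137 (chr6:67556181-67556216) is on the plus strand, 3170 kb from it, the farthest of the 160.
Igkv5-37: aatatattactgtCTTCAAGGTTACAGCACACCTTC
Igkv5-39: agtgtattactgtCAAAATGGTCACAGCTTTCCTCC
Igkv2-137: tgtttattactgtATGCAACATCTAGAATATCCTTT
Igkv5-37 had 408 UMIs in RA plasma cells, in 10 cells, and 0 in butyrate, at least 114-fold lower there against a floor of 3 UMIs over the class. Igkv5-39 had 317 and 16 UMIs, a ratio of 0.0600 (0.0339 to 0.0989), with 39.7% of the RA UMIs in 1 cell. Igkv8-27 had 324 and 20, a ratio of 0.0734 (0.0442 to 0.115). Igkv2-137 had 7 and 104, a ratio of 17.7 (8.27 to 45.0). Igkv12-46 and Igkv15-103 had 0 UMIs in RA and 149 and 105 in butyrate, at least 59.0-fold and 41.6-fold higher. These ratios count molecules, which cells of 1 kind supply in bulk, and not independent cells. By cells, with 1 UMI sufficing, Igkv2-137 was assigned in 1 of 84 RA and 7 of 54 butyrate plasma cells. That ratio was 10.9 (1.40 to 491), an interval that excluded equality.

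Repeated heavy and light pairs were more frequent in RA plasma cells. An Ighv and a light chain V gene could both be assigned in 60 RA and 30 butyrate plasma cells. In RA these formed 35 pairs, and 36 cells, or 60% (46.5% to 72.4%), shared their pair with another cell. In butyrate they formed 26 pairs, and 7 cells, or 23.3% (9.93% to 42.3%), did. The repeated RA pairs include Iglv1 with Ighv2-9 in 3 cells and with Ighv14-1 in 2, and no Iglv1 pair was repeated in butyrate. Those RA cells were kappa cells by their constant genes, so Iglv1 need not be the light chain of their antibody. The chance that 2 cells of a library share a pair, which unlike those shares does not grow with the number of cells, was 3.16% and 1.15%. The largest RA pairs were Ighv2-6-8 with Igkv1-117 in 7 cells, Ighv9-3 with Igkv5-37 in 5, Ighv3-6 with Igkv5-39 in 5, and Ighv1-81 with Igkv1-110 in 4. So 7 of the 8 RA cells assigned Igkv1-117 and all 5 assigned Igkv5-39 had 1 heavy partner. The largest butyrate pair was Ighv1-66 with Igkv12-46, in 3 cells. A shared pair of V genes does not show a clone, since the junctions were not read.

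Igkv1-110 and Igkv1-117 led among B cells, where few cells had enough V molecules to be assigned. Both belong to the Igkv1 family and lie on the plus strand of chromosome 6, 2455 and 2605 kb from Igkc. Their last 36 bases (GENCODE M21, GRCm38) are shown, Igkv1-110 at chr6:68271232-68271267 and Igkv1-117 at chr6:68121792-68121827, with capitals for the bases that differ.
Igkv1-110: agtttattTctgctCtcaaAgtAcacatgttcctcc
Igkv1-117: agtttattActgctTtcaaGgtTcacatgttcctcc
They differ there at 4 positions, and 50.3% of the 50-base windows of Igkv1-110 occur in Igkv1-117. No cell of any class had at least 3 UMIs of both.

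At least 1 V UMI was found in 18.6% of RA and 21.7% of butyrate B cells with Ighd, and a V gene was assigned in 33 and 59 of them. Igkv1-110 was assigned in 16 and 19 of these cells, 48.5% and 32.2%, and Igkv1-117 in 11 and 28, 33.3% and 47.5%. Together they held 81.8% of assigned RA cells and 79.7% of assigned butyrate cells, against 19.0% and 18.0% in plasma cells. That dominance followed the threshold of 3 UMIs: with 1 UMI sufficing they held 24.5% of 474 and 24.9% of 807 cells, beside 69 and 90 V genes in all. In that wider count 62 of 97 V genes were assigned in both libraries, against 12 of 40 in plasma cells and 32 of 67 in B cells without Ighd, where far fewer cells were assigned.

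Assigned B cells without Ighd differed between the mice in the shares of these 2 genes. Together the genes held 97.1% of assigned RA and 87.1% of assigned butyrate cells, so a higher share of 1 lowers the other. In RA, Igkv1-110 was assigned in 25 of 35 cells, 71.4% (53.7% to 85.4%), and in butyrate in 13 of 62, 21% (11.7% to 33.2%), a ratio of 0.294 (0.138 to 0.596). Igkv1-117 was assigned in 9 of 35 RA cells, 25.7% (12.5% to 43.3%), and in 41 of 62 butyrate cells, 66.1% (53.0% to 77.7%), a ratio of 2.57 (1.23 to 6.02). With 1 UMI sufficing the ratios were 0.446 (0.278 to 0.713) and 1.82 (1.08 to 3.20), over 133 RA and 269 butyrate cells. All these intervals take cells as independent draws. Ighg1 led 34 of the 41 butyrate cells assigned Igkv1-117 and 0 of the 9 RA ones, so the Igkv1-117 excess lay largely in 1 group of cells. Whether those cells are related was not tested. Over all B cells without Ighd, an Igkv1-110 UMI was found in 6.74% of RA and 4.41% of butyrate cells, a smaller gap than among assigned cells. An Igkv1-117 UMI was found in 3.45% and 7.79%. At most 0.584% of the epithelial cells, T cells or fibroblasts of a library had a UMI of either gene.

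**Figure D5:**
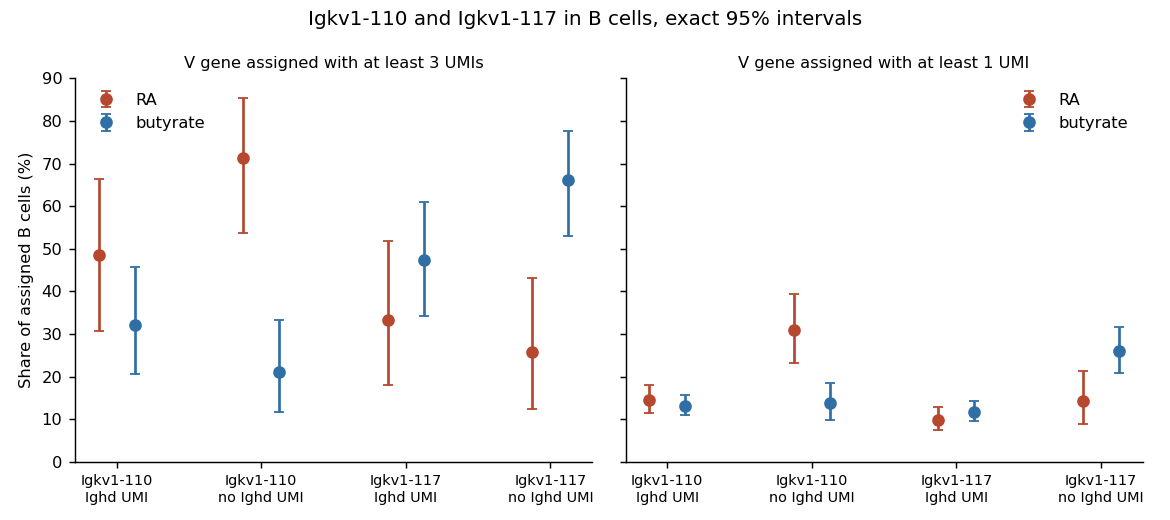
Share of assigned B cells (vertical axis, in percent) for Igkv1-110 and Igkv1-117 in cells with and without an Ighd UMI, with at least 3 UMIs needed to assign a V gene (left) and with 1 sufficing (right); points are libraries and bars exact 95% intervals for counting error. In cells without Ighd, RA is higher for Igkv1-110 (71.4% against 21%) and butyrate for Igkv1-117 (66.1% against 25.7%) on the left, and the order is the same on the right.

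The cells behind these shares carried different heavy chain genes in the 2 libraries. Of the 41 butyrate cells without Ighd assigned Igkv1-117, Ighg1 was the leading heavy chain constant gene in 34, 82.9% (67.9% to 92.8%). The proliferation gene Mki67 did not set them apart, with a UMI in 18 of them, or 43.9%. It had one in 40% of the 25 RA cells assigned Igkv1-110 and 44.4% of the 9 RA cells assigned Igkv1-117. In the 13 butyrate cells assigned Igkv1-110 the share was 53.8%. An Igkv1-117 UMI was present in 45 of the 102 butyrate cells led by Ighg1, 44.1% (34.3% to 54.3%), and in 0 of the 48 RA cells led by it, where the interval reaches 7.40%. In RA, the 25 cells assigned Igkv1-110 were spread, with Igha leading in 9, Ighg1 in 4, Ighm in 3 and no leading gene in 8.

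Depth moved with these assignments. The butyrate cells without Ighd assigned Igkv1-117 had a median of 10642 UMIs and 49 Igkc UMIs, against 5217 and 16 in cells with no assigned V gene, and the RA cells assigned Igkv1-110 had 8703 and 48, against 4476 and 11. Its part in the shares was not tested. Heavy V genes were too sparse to pair: a UMI that decided a heavy V gene was present in 3 of the 41 butyrate cells, with 3 different genes, and in 5 of the 25 RA cells assigned Igkv1-110, where 4 had Ighv1-81. Ighv1-81 was also the partner of Igkv1-110 in 4 RA plasma cells.

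By distance from Igkc, plasma cells drew on both ends of the kappa locus. V genes under 1 Mb away, 50 genes of which 40 are not pseudogenes, were assigned in 36 of 70 RA plasma cells with an assigned Igkv gene, 51.4% (39.2% to 63.6%), and in 19 of 44 butyrate ones, 43.2% (28.3% to 59.0%). The middle stretch between 1 and 2 Mb, with 57 genes and 31 that are not pseudogenes, gave 10% and 11.4%. The 53 genes over 2 Mb away, 29 of them not pseudogenes, gave 38.6% and 45.5%. With Igkv1-110 and Igkv1-117 left out the far stretch gave 20.4% and 31.4%. The intervals of the libraries overlapped in each stretch.

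Across all features, a library difference of at least 2-fold in CPM was common in plasma cells. Of the 168 members, 53 had at least 20 plasma cell UMIs over both libraries: 17 were at least 2-fold higher in butyrate, where 17.8% of 8581 features were, and 24 at least 2-fold lower, where 2.91% were. The members' median log2 ratio was -0.78, against 0.39 over all features, with 15 tested members at 0 in butyrate and 9 at 0 in RA. It was also -0.78 with those at a floor of 3 UMIs. Large shares came from single cells: Igkv4-57-1 and Igkv1-88 had 54 and 70 RA UMIs, all in 1 plasma cell each.

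Fewer members differed in B cells. With Ighd, 24 members could be compared. Of these, 4 were at least 2-fold higher in butyrate (1.57% of all features were), namely Igkv1-135, Igkv17-127, Igkv12-89 and Igkv6-32. Iglv1 alone was lower (5.99% of all features were), and its share of RA cells with a UMI was close to that of fibroblasts. The interval of Igkv1-135 (0.983 to 5.05) included equality, and Iglv1 was no longer past 2-fold by the mean over cells or without the highest doublet scores. Without Ighd, 9 could be compared. Of these, Igkv1-117 and Igkv19-93 were higher (1.71% of all features were) and Igkv1-110 was lower (16% of all features were). Igkv19-93 had 4 and 18 UMIs, with an interval of 0.928 to 11.4 that included equality, and 1 member was higher by the mean over cells or without the highest doublet scores. The median log2 ratio of the members was 0.24 against -0.07 over all features with Ighd, and 0.61 against -0.08 without. Igkc itself had a ratio of 1.17 (1.16 to 1.19) with Ighd and 1.53 (1.498 to 1.56) without.

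A list of 36 genes for light chain recombination, its control, the surrogate light chain and antibody assembly moved little in B cells. In B cells with Ighd, 28 were tested, and Ighg1, at a ratio of 4.53 (3.16 to 6.69), was at least 2-fold higher in butyrate, where 1.57% of all features were. In those without Ighd, 29 were tested, and Ighe, the IgE heavy chain gene, was at least 2-fold lower, at 0.258 (0.0904 to 0.654), where 16% of all features were. In plasma cells 28 were tested, of which 7 were at least 2-fold higher and 3 lower, where 17.8% and 2.91% of all features were. The higher ones were Ung, which encodes a DNA repair enzyme, the B lineage transcription factor genes Pax5, Ebf1, Irf8 and Spi1, and the IgG genes Ighg1 and Ighg2c. Pax5, which holds B cell identity, was at 15.4 CPM in RA and 58.1 in butyrate, a ratio of 3.76 (2.47 to 5.88). The lower ones were Igha at 0.419 (0.415 to 0.423), Jchain, which the class rule uses, and Ighd. The share of plasma cells with a Ms4a1 UMI was also higher in butyrate, as given above, and its part in these differences was not tested. Xbp1 and Prdm1, the transcription factors of the secretory program, were at 0.629 (0.578 to 0.684) and 1.01 (0.866 to 1.18). Igha was the leading heavy chain gene in 100 of 105 RA and 59 of 73 butyrate plasma cells.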

How the data were processed

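Each of 2 dissociated mouse intestines gave 1 library. The deposited values are raw UMI counts per gene and barcode, with no normalization. Cell Ranger 6.0.1, Seurat 4.0.3 and 4.0.4 and mm10 are named per the submitters' processing notes; the headers of the count tables name Cell Ranger 7.1.0. Whether intronic reads were counted is not given in the sources used here, and it would change the counts of a gene. All 168 members were matched by identifier to the GENCODE M21 annotation of GRCm38, which is the same assembly as mm10.

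Classes were cut by UMI thresholds, not clusters. UMIs were summed per class and library and expressed as CPM. Shares carry exact Clopper-Pearson intervals, and ratios, butyrate over RA, exact conditional binomial intervals (scipy 1.17.1). Beside a count of 0, the limit is 3 counts of the total where "allows" is used. A comparison between libraries over all features took those with at least 20 UMIs. The named genes were Igkc, all Iglc and Iglv genes, the 5 leading V genes per class and library, V genes with at least 20 assigned cells whose ratio was at least 2-fold with an interval excluding 1, and listed genes past 2-fold. Members named outside it (Igkv4-57-1, Igkv1-88 and the B cell members past 2-fold) were chosen after their values were seen. Epithelial, T and fibroblast barcodes, taken by Epcam, Cd3e and Dcn, gave the free RNA level. All had no Cd79a UMI and fewer than 20 Jchain UMIs, T cells also no Epcam UMI, and fibroblasts no Ptprc UMI. Fibroblasts could overlap the epithelial cells, as 12.0% of RA and 11.6% of butyrate fibroblasts had an Epcam UMI. Scrublet in scanpy 1.11.5 called 0 doublets in both libraries, so no barcode was removed, and removal of the 382 RA and 544 butyrate barcodes with the highest scores was an alternative. The fold, typing and V assignment steps were tested on simulated data. The members, lists and rules were chosen with earlier results of these data known. 1 gene of the list of recombination and assembly genes is not reported here.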

Additional observations from a re-analysis of the deposited data

Results flagged for a closer look

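Lambda cells outside the plasma class were set apart because they lie in barcodes the class rule leaves out: 2 of the 54 RA cells and 1 of the 53 butyrate cells with at least 20 Jchain UMIs and no Mzb1 UMI had at least 95% lambda. The shares of Igkv1-110 and Igkv1-117 among assigned B cells moved in opposite directions in the 2 libraries from cells with Ighd to cells without when at least 3 UMIs were needed. Igkv1-110 was 22.9 percentage points higher without Ighd in RA, and its difference in butyrate was -11.2 points. For Igkv1-117 the difference was -7.62 points in RA and 18.7 points in butyrate. With 1 library per group this difference between libraries was not tested. With 1 UMI sufficing the directions were not opposite: both genes had a higher share without Ighd in both libraries, Igkv1-110 at 30.8% against 14.6% in RA and 13.8% against 13.1% in butyrate, and Igkv1-117 at 14.3% against 9.92% in RA and 26.0% against 11.8% in butyrate.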

How the results depend on the processing

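Among alternative values of the main results, 137 stayed within the counting interval or within 1.5 times the reported count and 50 moved; among those of single genes, 207 stayed and 24 moved. No difference whose interval excluded equality changed direction. The lambda share depended on how a cell was typed. In the butyrate plasma class it was 0% without cells between 20% and 80% lambda and 0% with Jchain limits of 50 and 5, and with V genes in place of constant genes it was 24.3% in RA and 16.7% in butyrate plasma cells. In B cells with Ighd it was 4.29% and 1.45% at 20 constant-gene UMIs (ratio 0.337), 1.496% and 0.877% without the cells between 20% and 80%, 14.5% and 11.1% of summed UMIs (ratio 0.766), and 0% in both by V genes. In B cells without Ighd it was 2.78% in RA at 20 UMIs, where the ratio turned to 1.34, then 1.67% and 1.09% without the mixed cells, 14.1% and 12.6% of summed UMIs, and 0% in both by V genes. Members at least 2-fold higher in butyrate numbered 8 in plasma cells at a minimum of 50 UMIs and 29 at 1 UMI. In B cells with Ighd they numbered 1 and 38, and 2 at a mitochondrial limit of 10%. In B cells without Ighd they numbered 1 and 42, and 1 by the mean over cells and 1 without the highest doublet scores. Members at least 2-fold lower numbered 0 at 50 UMIs, by the mean over cells, at the 10% limit and without the highest doublet scores in B cells with Ighd, 14 at 1 UMI there, and 17 at 1 UMI without Ighd. At 5 UMIs and 80%, Iglv1 held 8.89% of RA plasma cells, Igkv1-110 31.6% of butyrate plasma cells and 75% of RA B cells with Ighd. Of summed V UMIs, Iglv1 held 35.3% in RA plasma cells, Igkv1-110 20.6% in RA B cells with Ighd and 47.1% without, and Igkv1-117 16.2% and 41.4% in butyrate. With 1 UMI sufficing, Igkv1-110 held 14.6% and 30.8% in RA and Igkv1-117 11.8% and 26.0% in butyrate, and at 2 UMIs and 50% Igkv1-117 held 31.8% in butyrate B cells with Ighd. Apart from what those settings change by construction, the cause was not tested. The alternatives with 1 UMI for a V gene, with Igkv genes alone, with Jchain alone, without shared barcodes and without Ms4a1 cells, and the Jchain limit of 50 for the Igkc level, were chosen after seeing the data. No paired analysis was possible because each group has 1 library and no result comes from a test. V genes in B cells are limited by depth.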
